A study of Mus musculus with 22 samples.

Results

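The Toll-like receptors and the LPS co-receptors measured in CD11b+ brain cells were 10 genes: the surface receptors Tlr1, Tlr2, Tlr4 and Tlr6, the endosomal receptors Tlr3, Tlr7, Tlr9 and Tlr13, and the co-receptors Cd14 and Ly96. They were chosen by name, and all 10 were found among the 56691 genes of the deposited tables and passed the filter on low counts in every comparison. All animals were wildtype mice of the outbred CF-1 strain, and CD11b+ cells were enriched on magnetic beads from dissociated whole brain. In the HIE group, for which the study combines 2 hits, the dam received 50 µg/kg of LPS intraperitoneally on E18, and the pups went through 8 min of falling oxygen, from 21% to 0%, on P6. The methods give saline to the dam and normoxia (21% oxygen) as the control treatments. Another group is labelled hypoxia, is present on P14 only, and is not described in the methods, so whether its dams were injected is not known here. There were 4 control and 4 HIE animals for P7, and 4 control, 4 hypoxia and 4 HIE animals for P14. The question was whether the groups whose dams had received LPS differed from the group labelled hypoxia and from controls in these receptors. On P7 there was no hypoxia group, so LPS and hypoxia cannot be told apart there.

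Toll-like receptors recognise conserved microbial molecules and endogenous nucleic acids and signal through adaptors to NF-κB and interferon regulatory factors. The surface receptors recognise bacterial and fungal wall components, and the endosomal receptors recognise nucleic acids. LPS itself is carried to Tlr4 by the membrane protein Cd14 and is held by Ly96, the partner protein that sits on the outer part of Tlr4. Microglia, the resident macrophages of the brain, are known to carry most of these receptors.

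Tlr1 and Tlr6 are neighbours on chromosome 5, 17762 bases apart on the minus strand, with coding sequences of 2385 bases each. Laid side by side without gaps, at the shift with the most matches, these had the same base at 64.6% of 2379 positions. An alignment with gaps was not made. Their longest identical run was 229 bases, and 7.58% of all 100-base windows of Tlr1 transcripts occurred in Tlr6 as well, so that the division of reads between these 2 genes depends on the read counter. Apart from 1.3% of the windows of Tlr7, the other members shared no such window with any gene. A stretch of 180 coding bases of both genes is shown because a read that lies inside it without covering its 1 mismatch matches both genes equally (GRCm39, minus strand; chr5:65083049-65083228 for Tlr1 and chr5:65111340-65111519 for Tlr6). The only mismatch is in capitals.
Tlr1: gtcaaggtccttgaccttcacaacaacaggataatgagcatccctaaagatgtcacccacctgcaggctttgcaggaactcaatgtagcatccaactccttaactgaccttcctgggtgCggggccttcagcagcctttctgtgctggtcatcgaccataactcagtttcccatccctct
Tlr6: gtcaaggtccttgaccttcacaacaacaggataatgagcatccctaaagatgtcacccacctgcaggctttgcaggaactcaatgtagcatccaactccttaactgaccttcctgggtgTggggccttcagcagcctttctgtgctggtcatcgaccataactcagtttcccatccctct

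The 250 bases before the annotated start of the canonical transcript of each gene were searched on both strands for 3 motifs. For Tlr3, Tlr6 and Ly96 this window lay within the annotated span of the gene, because other transcripts start further upstream. The letters GAGGAAG, a core bound by the myeloid factor PU.1, were found before Tlr9, Tlr13 and Ly96, and in 10.9% of 15956 such windows of tested genes. A form of the NF-κB site, GGGA and TTCC with any 2 bases between them, were found before Tlr3 and Ly96 and in 1.35% of windows. No member held the interferon-type element of GAAA repeated after any 2 bases, which was present in 3.16% of windows. Tlr9 and Tlr13 are shown with the PU.1 core in capitals because they are the endosomal receptors among the matches (GRCm39, plus strand; chr9:106099547-106099796 and chrX:105186561-105186810). A match describes the letters only.
Tlr9: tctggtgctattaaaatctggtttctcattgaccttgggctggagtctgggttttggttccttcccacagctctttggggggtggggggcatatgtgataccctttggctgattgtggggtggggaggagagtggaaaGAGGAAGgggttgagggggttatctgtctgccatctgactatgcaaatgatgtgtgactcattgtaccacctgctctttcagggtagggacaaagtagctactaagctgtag
Tlr13: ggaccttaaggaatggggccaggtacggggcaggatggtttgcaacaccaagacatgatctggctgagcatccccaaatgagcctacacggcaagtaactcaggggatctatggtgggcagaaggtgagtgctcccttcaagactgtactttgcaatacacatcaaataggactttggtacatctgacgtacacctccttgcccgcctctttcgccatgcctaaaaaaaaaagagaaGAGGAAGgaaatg

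Total counts were 70191584 to 83469067 for the 8 P7 libraries and 29751540 to 46404123 for the 14 P14 libraries. Levels are given as CPM, that is, counts divided by the scaled total of the library, and 3 counts correspond to 0.0359 to 0.101 CPM, far below any member. The labels name no litters. Animals whose names share the part before the hyphen, such as P6H63, are called a litter here, and each such set held 1 treatment only. One control litter on P7 stood apart from all others. The summed level of 16 microglia markers was 2453 and 1574 CPM in litter P6H63, against 15418 to 31241 CPM in the other 18 animals. Astrocyte markers went the other way, with 2210 and 2850 CPM in P6H63 and 718 to 1252 CPM in the other P7 animals. In bulk RNA, fewer cells of a type and less RNA per cell cannot be told apart. The P7 controls carry the days P8 to P11 in the labels and the HIE pups P7, and the HIE pups are all labelled male, whereas 2 controls are labelled female, so day label, litter and treatment cannot be told apart. Sex labels matched Xist and 4 Y-linked genes in all 12 P14 animals and in 6 of 8 P7 animals. One HIE pup (N5-3, labelled male) had the female pattern, and 1 control (P6H55-12, labelled female) had neither.

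All 10 genes were expressed in every animal. Per kilobase of annotated exon, the 4 HIE pups on P7 had Cd14 at 175 ± 15.0 CPM per kb (mean ± SD, n = 4) and Tlr7, which recognises single-stranded RNA, at 53.5 ± 2.30. Tlr2 followed at 35.4 ± 1.75, Tlr13 at 29.4 ± 4.08, Tlr9 at 26.2 ± 2.59 and Tlr1 at 24.0 ± 4.83 CPM per kb. The animals' values for Tlr13 and Tlr9 overlapped, as did those for Tlr9 and Tlr1, whereas Cd14, Tlr7 and Tlr2 did not overlap with their neighbours in the order. Tlr4 at 14.9 ± 0.763, Tlr6 at 10.8 ± 1.43, Tlr3 at 6.68 ± 0.772 and Ly96 at 5.44 ± 0.572 CPM per kb formed the lower end, where Tlr3 and Ly96 overlapped. By mean, Cd14 was at rank 1, Tlr7 at rank 2, Tlr3 at rank 9 and Ly96 at rank 10 in each of the 5 groups. Tlr2 was at rank 3 in P7 HIE pups and at rank 8 in P14 hypoxia animals, and Tlr1 was at rank 5 in P14 controls and at rank 8 in P14 HIE animals. The tables of the 2 days were scaled separately, so ranks within a group can be read but levels between days were not tested.

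**Figure D1:**
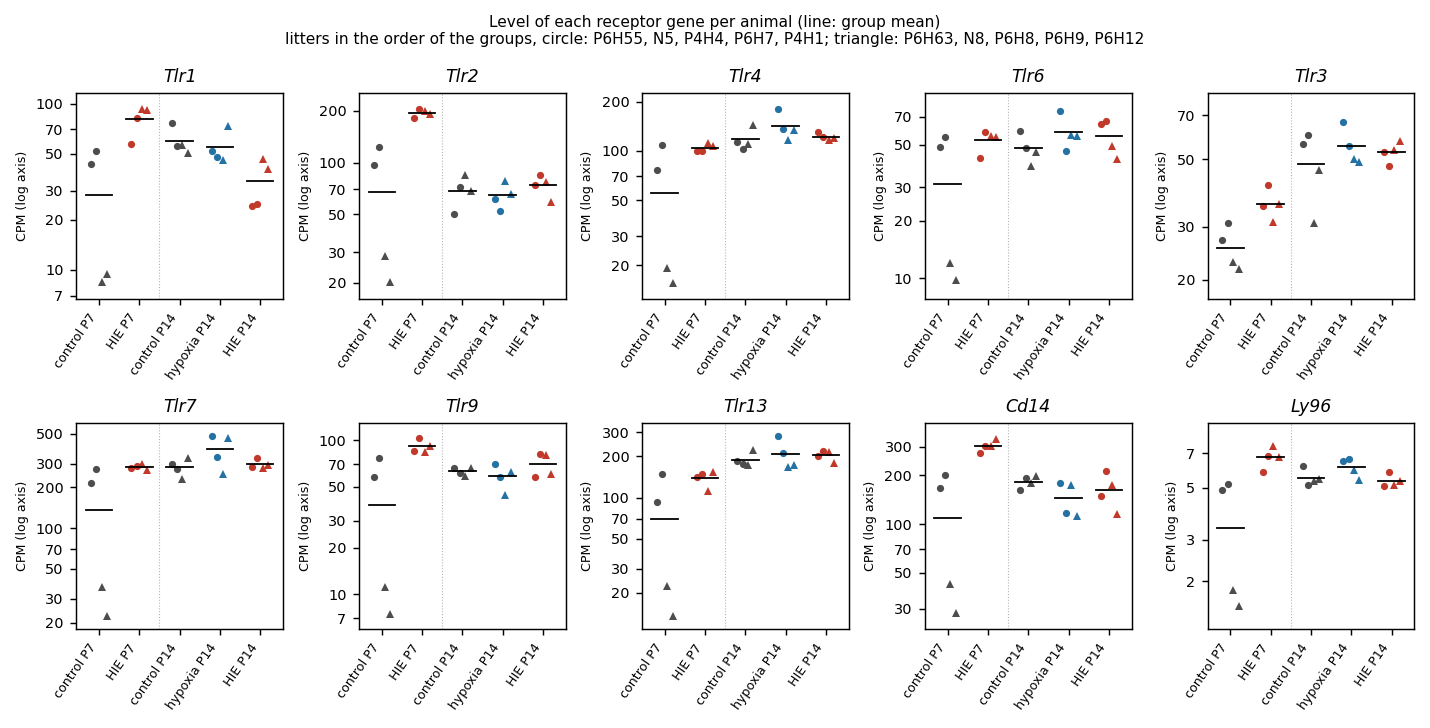
CPM of each member (log axis) in each of the 20 animals by group, with circles and triangles for the 2 litters of a group and a line at the group mean. The control P7 triangles, litter P6H63, lie lowest in every panel. The 4 HIE pups of P7 lie above all controls for Tlr1, Tlr2, Tlr3, Tlr9, Cd14 and Ly96.

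On P7, 6 of the 10 genes (Tlr1, Tlr2, Tlr3, Tlr9, Cd14 and Ly96) were higher in every HIE pup than in every control pup, where 8.5% of all tested genes were. None passed edgeR's quasi-likelihood test after Benjamini-Hochberg adjustment over 22517 genes, and 5 had an unadjusted p under 0.05. The test called 0.0666% of all genes and gave 27.3% an unadjusted p under 0.05. DESeq2, which called 13.4% of all genes, called Tlr2 (adjusted p = 0.0399) and Tlr3 (adjusted p = 0.0255). On simulated counts of the P7 and P14 designs, DESeq2's calls held a larger share of unchanged genes than its threshold allows, and edgeR's did not. Of 100 genes changed by 1 on the log2 scale, edgeR recovered 27 on P7 and 63 on P14, and DESeq2 54 and 77. A member that did not pass edgeR's test on P7 may thus still have changed by that much. The simulated counts were drawn for independent animals with the spread that edgeR estimates. They therefore cannot show how either test behaves on animals that share litters, or with a litter like P6H63. Relative to the microglia marker score described below (log2 CPM minus the score), no member was higher in every HIE pup, Tlr6 was lower in every HIE pup and 9 overlapped, where 0.0311% of all genes were higher and 47.6% lower. The median log2 fold change of the members was 1.03, against -0.08 over all genes tested.

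Among the surface receptors, Tlr2, which binds bacterial lipoproteins together with Tlr1 or Tlr6, was at 182 and 204 CPM in HIE litter N5 and at 200 and 192 CPM in HIE litter N8. Control litter P6H55 had 123 and 96.9 CPM, and P6H63 had 28.7 and 20.2 CPM. The lowest HIE pup was thus above the highest control, and within the controls P6H63 was far below P6H55. HIE pups were on average 2.90-fold higher, or 1.53 on the log2 scale (SE 0.54; adjusted p = 0.153 in edgeR).

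Tlr1, the partner of Tlr2 for triacylated lipoproteins, was at 57.6 and 82.6 CPM in N5, 93.2 and 91.1 in N8, 51.6 and 43.4 in P6H55, and 8.41 and 9.40 in P6H63. HIE and control pups did not overlap, with a narrow gap between 51.6 and 57.6 CPM. On the log2 scale the difference was 1.52 (SE 0.60; adjusted p = 0.164 in edgeR). Tlr6, the partner for diacylated lipoproteins, was at 42.6, 58.2, 55.2 and 54.9 CPM in the HIE pups and at 54.8 and 48.6 CPM in P6H55. These overlapped, and only P6H63, with 12.0 and 9.80 CPM, was lower. Tlr6 differed by 0.75 on the log2 scale (SE 0.55; adjusted p = 0.361 in edgeR). The ratio of Tlr1 to Tlr6 within each animal, which no scaling factor enters, was 1.35 to 1.69 in the HIE pups and 0.698 to 0.960 in the controls, with both control litters below every HIE pup. Of all tested genes, 0.826% had such a higher ratio to Tlr6 in every HIE pup. With the counts of Tlr1 and Tlr6 summed, the HIE pups had 100, 141, 148 and 146 CPM. The sum was 106 and 92.0 CPM in P6H55 and 20.4 and 19.2 CPM in P6H63, so that HIE and control pups overlapped. The log2 fold change of the sum was 1.17 (SE 0.57; adjusted p = 0.212 in edgeR).

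Tlr4, the signalling receptor for LPS, was at 100 CPM in both pups of N5, 111 and 107 CPM in N8, 108 and 76.5 CPM in P6H55, and 19.1 and 15.6 CPM in P6H63. The HIE pups lay within a narrow band that included the higher control of P6H55. Its log2 fold change was 0.93 with a 95% confidence interval from -0.41 to 2.27 (edgeR adjusted p = 0.300).

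The LPS co-receptor Cd14 was at 274 and 303 CPM in N5 and at 302 and 337 CPM in N8. It was at 200 and 167 CPM in P6H55 and at 42.7 and 28.3 CPM in P6H63, so that HIE and control pups did not overlap. Its log2 fold change was 1.47 (SE 0.59; edgeR adjusted p = 0.166). Ly96, whose protein holds LPS on Tlr4, was at 5.80, 6.80, 7.52 and 6.77 CPM in the HIE pups, 5.18 and 4.90 CPM in P6H55, and 1.84 and 1.57 CPM in P6H63. Ly96 differed by 1.00 on the log2 scale (SE 0.40; adjusted p = 0.168 in edgeR). Both co-receptors were thus higher in each HIE pup than in each control, whereas Tlr4 overlapped with control P6H55-7 at 108 CPM. The log2 fold changes of Ly96 (1.00) and Tlr4 (0.93) were near each other, and the ratio of Ly96 to Tlr4 overlapped between the groups.

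Of the endosomal receptors, Tlr9, which recognises unmethylated CpG DNA, was at 85.5, 103, 83.4 and 91.7 CPM in the HIE pups, 76.2 and 57.8 CPM in P6H55, and 11.1 and 7.47 CPM in P6H63. The gap between the groups, from 76.2 to 83.4 CPM, was small beside that between the control litters. Tlr9 differed by 1.26 on the log2 scale (SE 0.68; adjusted p = 0.247 in edgeR). Tlr7 was at 278, 289, 297 and 269 CPM in HIE pups, 272 and 216 CPM in P6H55, and 36.5 and 22.5 CPM in P6H63. Tlr13, a receptor for bacterial ribosomal RNA, was at 142, 150, 111 and 154 CPM in HIE pups, 150 and 92.5 CPM in P6H55, and 22.3 and 13.6 CPM in P6H63. For both, HIE pups and litter P6H55 overlapped, and the log2 fold changes of 1.05 (Tlr7) and 1.00 (Tlr13) had edgeR adjusted p-values of 0.338 and 0.331.

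Tlr3, the receptor for double-stranded RNA, behaved differently in P6H63. It was at 35.1 and 41.1 CPM in N5, 31.1 and 35.6 in N8, 30.7 and 27.0 in P6H55, and 22.9 and 21.7 in P6H63, so that the litter low in microglia markers was only slightly below the other controls. Its log2 fold change, 0.48, had the smallest standard error of the 10 (0.14; edgeR adjusted p = 0.150). Beside this stands the higher level of astrocyte markers in P6H63. Astrocytes are known to carry Tlr3, and their part in this value was not tested.

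Against the 2 controls of P6H55 alone, the same 6 genes were higher in every HIE pup, where 12.8% of all tested genes were. The log2 fold changes were 0.83 for Tlr2 (95% confidence interval 0.57 to 1.09), 0.78 for Tlr1 (0.32 to 1.24) and 0.73 for Cd14 (0.47 to 1.00). Those of Tlr9, Ly96 and Tlr3 were 0.45, 0.42 and 0.32. Those of Tlr7, Tlr13, Tlr4 and Tlr6 were 0.22, 0.21, 0.19 and 0.04, with intervals that held 0. No member passed edgeR's test in this comparison, which called 0.112% of genes. The smallest adjusted p-values were 0.0700 for Tlr2 and 0.111 for Cd14, and 6 members had an unadjusted p under 0.05, as did 16.5% of all genes. DESeq2 called Tlr1, Tlr2, Tlr9 and Cd14 (adjusted p = 0.00321, 8.45e-09, 0.0452 and 1.2e-06), with 4.2% of all genes called. The intervals and p-values of this paragraph take 2 control animals of the same litter as independent. They do not measure the spread between control litters. Relative to the microglia marker score, Tlr2 and Cd14 were higher and Tlr6 lower in every HIE pup than in both P6H55 controls, where 1.12% of all genes were higher and 47.7% lower. Against P6H63 alone, all 10 members passed edgeR's test with log2 fold changes from 0.72 (Tlr3) to 3.33 (Tlr9), where 58.5% of all genes passed.

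**Figure D2:**
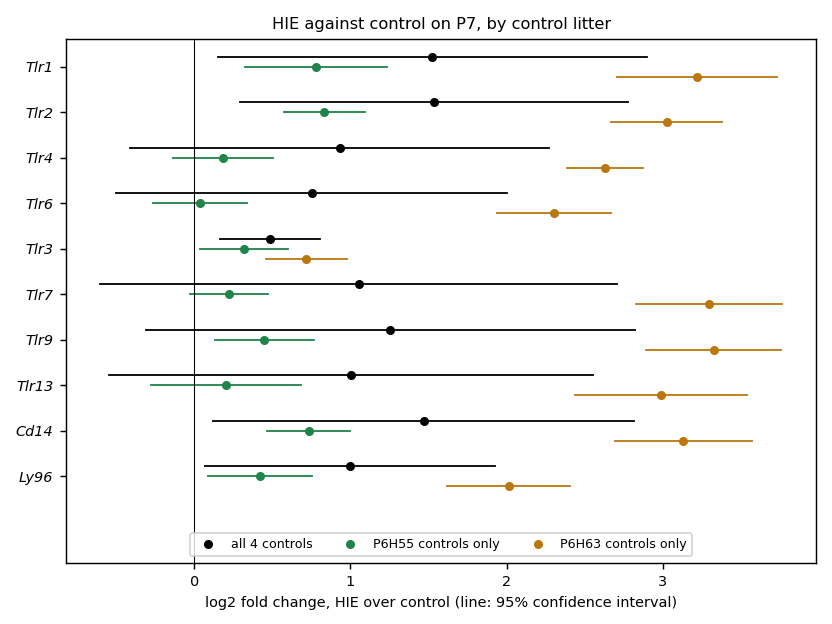
Log2 fold change of HIE over control on P7 for each member, against all 4 controls (black), the 2 controls of P6H55 (green) and the 2 controls of P6H63 (brown), with 95% confidence intervals from the edgeR fit. Against P6H55, Tlr2, Tlr1 and Cd14 lie at 0.73 to 0.83, whereas Tlr6 lies at 0.04. Against P6H63 every member but Tlr3 lies at 2.01 or above.

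Ratios between members within an animal were compared because they carry no scaling factor. The ratio of Tlr2 to Tlr4 was 1.81, 2.03, 1.80 and 1.80 in the HIE pups. It was 1.13 and 1.27 in P6H55 and 1.51 and 1.296 in P6H63. The 2 control litters differed widely in the levels of both genes, and all their ratios were below those of the HIE pups. Both ratios of P6H63 were above both of P6H55. The ratio of Cd14 to Tlr4 was 2.73, 3.02, 2.71 and 3.15 in the HIE pups, 1.85 and 2.19 in P6H55, and 2.24 and 1.82 in P6H63, again without overlap. Of the other members, none had a ratio to Tlr4 that was higher in every HIE pup than in every control, and 0.244% of all tested genes did. Tlr4 was low in P6H63, so genes that were not low there had high ratios to it in that litter. The share over all genes therefore does not show how often microglia genes had such a ratio. The same holds on P7 for the shares given for ratios to Tlr6 and for the microglia marker score. Against P6H55 alone, Tlr1 also had a higher ratio to Tlr4 in every HIE pup, as did 1.87% of all genes. These ratios were chosen after their values had been seen, and no test was made.

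Other cell types that carry these receptors were read from their markers. Summed monocyte markers were at 57.3 to 84.8 CPM in HIE pups and 72.3 to 93.6 CPM in controls. Summed neutrophil markers were at 70.8 to 191 CPM in HIE pups, 150 and 180 CPM in P6H55, and 16.2 and 20.4 CPM in P6H63. Markers of border macrophages were at 3968 to 6515 CPM in HIE pups, 5515 and 3747 CPM in P6H55, and 1049 and 734 CPM in P6H63. None of these sums was higher in every HIE pup than in both P6H55 controls. The sum of the microglia markers was, at 19396 to 21964 CPM in HIE pups against 17338 and 15418 CPM in P6H55. Choroid plexus markers were lower in the HIE pups, at 1150 to 2164 CPM against 3430 to 8972 CPM, and their part in the receptor values was not tested. With the microglia marker score (the mean log2 CPM of the 16 markers) as a covariate, the log2 fold changes of Tlr2, Tlr1 and Cd14 were 0.61, 0.58 and 0.49 (edgeR adjusted p = 0.0742, 0.318 and 0.210). Those of Tlr4, Tlr6, Tlr7 and Tlr13 were then slightly below 0.

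**Figure D3:**
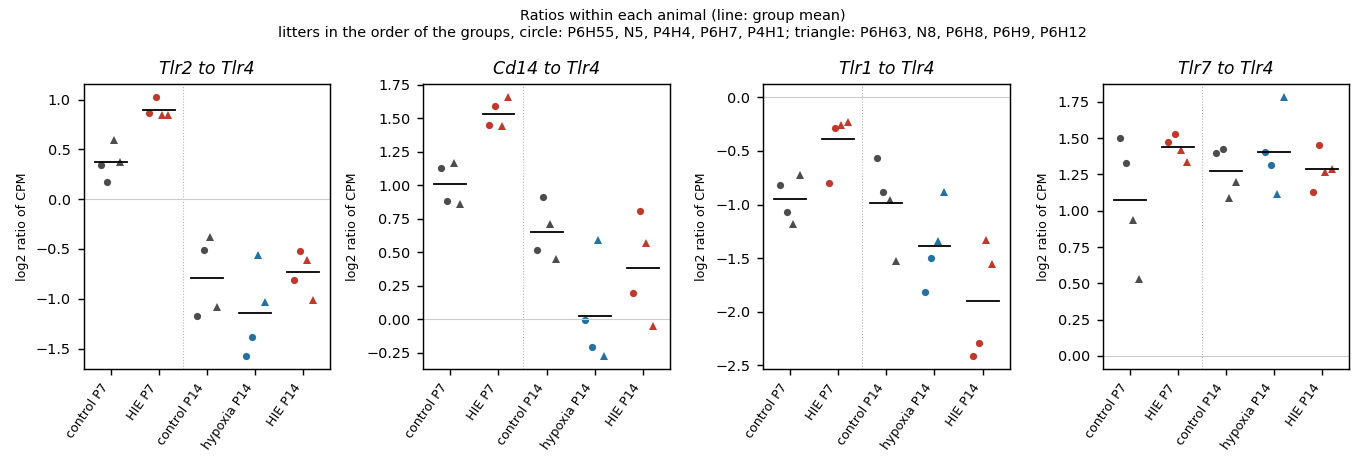
Log2 ratio of Tlr2, Cd14, Tlr1 and Tlr7 to Tlr4 within each of the 20 animals, by group, with circles and triangles for the 2 litters of a group and a line at the group mean. For Tlr2 and Cd14 the HIE pups of P7 lie above both control litters, and on P14 the groups overlap.

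On P14, no member passed edgeR's test in HIE against control, in HIE against hypoxia, in hypoxia against control, or in HIE against the mean of both. The test called 0% of 21678 genes in each of these comparisons, and 1 member had an unadjusted p under 0.05 in each. That member was Tlr1 in the 3 comparisons with HIE and Tlr7 in hypoxia against control. Of all genes, 9.30%, 5.78%, 9.89% and 6.4% had an unadjusted p under 0.05. DESeq2, which called 1.1%, 0.101%, 0.586% and 0.12% of genes, called 1 member in the first comparison (Tlr1) and none in the others. The comparisons share their HIE, control or hypoxia animals.

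Tlr1 was at 24.4 and 24.9 CPM in HIE litter P4H1 and at 40.6 and 46.5 CPM in HIE litter P6H12. Controls had 55.7 and 76.3 CPM in P4H4 and 50.2 and 56.4 CPM in P6H8, and hypoxia animals had 51.7 and 47.9 CPM in P6H7 and 45.7 and 73.4 CPM in P6H9. Every HIE animal was below every control, and Tlr1 was the only member whose groups did not overlap, where 2.95% of all genes were lower and 2.41% higher in every HIE animal. No member was without overlap in HIE against hypoxia, where 1.64% of genes were higher and 1.05% lower, or in hypoxia against control, where 2.14% were higher and 2.87% lower. HIE and hypoxia overlapped by a small margin, 46.5 against 45.7 CPM. Its log2 fold change was -0.81 against control (SE 0.23; edgeR adjusted p = 0.343; DESeq2 adjusted p = 0.0494) and -0.68 against hypoxia (SE 0.23; edgeR adjusted p = 0.850; DESeq2 adjusted p = 0.368).

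The low values were those of litter P4H1, and the neighbour Tlr6 was high there. Tlr6 was at 64.2 and 66.5 CPM in P4H1 and at 42.2 and 49.3 CPM in P6H12, with 38.6 to 59.1 CPM in controls and 46.6 to 74.7 CPM in hypoxia animals. The ratio of Tlr1 to Tlr6 was 0.380 and 0.373 in P4H1, 0.961 and 0.943 in P6H12, 1.09 to 1.46 in controls and 0.692 to 1.33 in hypoxia animals. It was lower in every HIE animal than in every control, as was the ratio to Tlr6 of 3.49% of all genes. With the counts of both genes summed, HIE animals had 88.6, 91.4, 82.8 and 95.7 CPM and controls 103, 135, 96.2 and 95.02 CPM, which overlapped. The log2 fold change of the sum was -0.26 against control (95% confidence interval -0.54 to 0.02; edgeR adjusted p = 0.573). Against hypoxia it was -0.33, with an interval from -0.61 to -0.05 that does not hold 0 (unadjusted p = 0.0235; edgeR adjusted p = 0.850). With the animals whose names begin with P6H alone, P4H1 and the control litter P4H4 are left out. The value for Tlr1 against control was then -0.29 on the log2 scale (SE 0.22, adjusted p = 0.999 in edgeR). With the name prefix as a covariate, the value for Tlr1 was -0.86 (SE 0.23, adjusted p = 0.253 in edgeR). All hypoxia animals have names that begin with P6H, so prefix and treatment are partly mixed in the comparisons with hypoxia. How the counter divided shared reads, and sequence differences between litters of an outbred strain, were not tested.

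**Figure D4:**
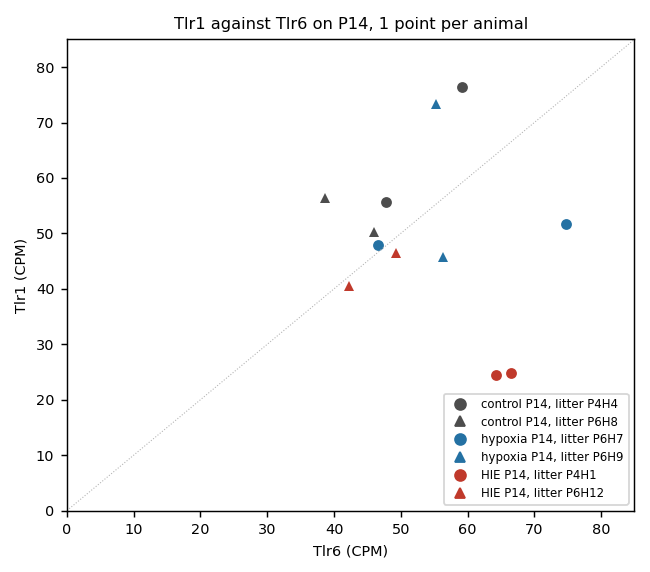
Tlr1 against Tlr6, both in CPM, in the 12 P14 animals, with colour for the group, shape for the litter and a dotted line of equal values. The 2 HIE animals of P4H1 stand apart at 24.4 and 24.9 CPM of Tlr1 with 64.2 and 66.5 CPM of Tlr6, and the 2 HIE animals of P6H12 lie near the line.

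Tlr2 and Cd14, which were higher in the P7 HIE pups, overlapped between all groups on P14. Tlr2 was at 74.3, 84.9, 59.1 and 76.7 CPM in HIE animals, at 72.0, 50.1, 68.2 and 84.5 CPM in controls, and at 61.0, 52.1, 78.5 and 65.8 CPM in hypoxia animals. The log2 fold change of HIE over control was 0.10 (95% confidence interval -0.25 to 0.46) and of HIE over hypoxia 0.20 (-0.16 to 0.55). Cd14 was at 148, 213, 115 and 173 CPM in HIE animals, 193, 162, 198 and 180 CPM in controls, and 181, 117, 174 and 112 CPM in hypoxia animals. The controls were the most even of the groups, and the log2 fold changes of Cd14 were -0.17 (-0.59 to 0.24) against control and 0.15 (-0.26 to 0.57) against hypoxia.

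Tlr4 was at 130, 121, 119 and 117 CPM in HIE animals, 103, 113, 145 and 110 CPM in controls, and 182, 136, 116 and 135 CPM in hypoxia animals. The hypoxia animals reached the highest value, and the groups overlapped. Its log2 fold change was 0.05 (-0.24 to 0.34) for HIE over control and -0.22 (-0.51 to 0.07) for HIE over hypoxia. Ly96, at 5.05 to 5.82 CPM in HIE animals, 5.12 to 6.17 in controls and 5.36 to 6.62 in hypoxia animals, had log2 fold changes of -0.05 (-0.34 to 0.24) and -0.19 (-0.49 to 0.10). All of these intervals hold 0.

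Tlr7 was at 285, 332, 292 and 280 CPM in P14 HIE animals, 275, 299, 332 and 233 CPM in controls, and 480, 338, 251 and 464 CPM in hypoxia animals. One animal of each hypoxia litter was far above every control and HIE animal. Of the other hypoxia animals, P6H7-8F at 338 CPM was slightly above them and P6H9-14M at 251 CPM was not. The log2 fold change was 0.43 for hypoxia over control (SE 0.18; edgeR adjusted p = 0.466) and -0.37 for HIE over hypoxia (SE 0.18; edgeR adjusted p = 0.850). Tlr13 ranged from 179 to 219 CPM in HIE animals, 173 to 221 in controls and 167 to 282 in hypoxia animals. Tlr9 ranged from 57.5 to 80.8, 58.4 to 66.1 and 44.1 to 69.6 CPM in the same order, and Tlr3 from 47.6 to 57.3, 30.7 to 60.0 and 48.9 to 66.5 CPM. All 3 overlapped between groups, and their log2 fold changes over the 3 pairs of groups lay between -0.11 and 0.25.

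**Figure D5:**
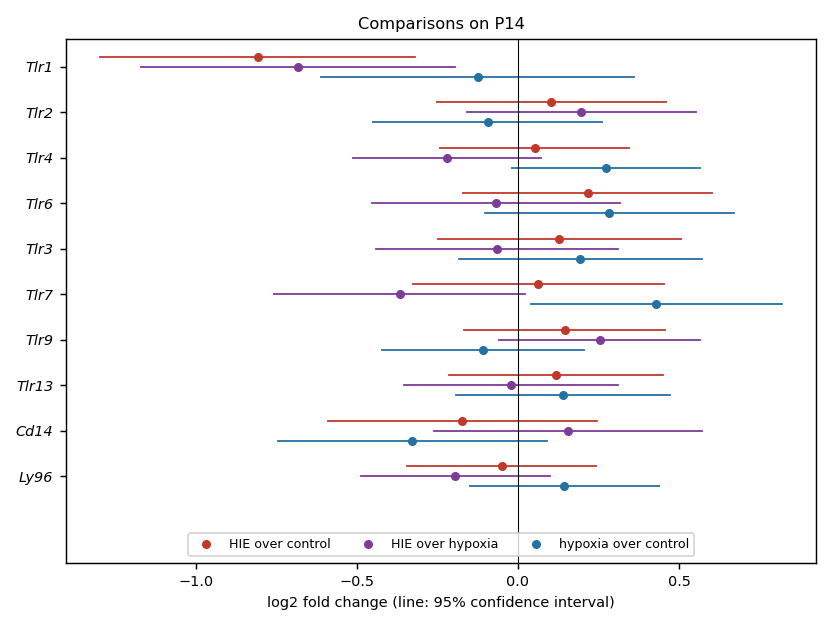
Log2 fold change of each member on P14 for HIE over control (red), HIE over hypoxia (purple) and hypoxia over control (blue), with 95% confidence intervals from the edgeR fit. Tlr1 lies at -0.81 and -0.68 in the comparisons with HIE. All other members lie between -0.37 and 0.43.

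The HIE effect on P7 was set against the HIE effect on P14 in 1 fit. No member passed edgeR's test, which called 0% of 24503 genes, and 4 members had an unadjusted p under 0.05 (14.4% of all genes had). For Tlr1 the 2 effects had opposite signs and their difference was 2.33 on the log2 scale (SE 0.62; edgeR adjusted p = 0.0919), which DESeq2 called (adjusted p = 0.0127; 2.86% of all genes called). The differences for Cd14, Tlr2 and Ly96 were 1.63, 1.42 and 1.04 (edgeR adjusted p = 0.214, 0.231 and 0.241). These values include the low P6H63 controls, and the difference was not fitted without that litter. Without the control P6H55-7, which leaves P6H63 as 2 of 3 controls, Tlr1, Tlr2, Cd14 and Ly96 passed, as did 6.99% of all genes. Without P6H55-12, Tlr1 passed, as did 3.04%. In the P7 comparison itself, leaving out P6H55-7 let Tlr2 (adjusted p = 0.0388) and Tlr3 (0.0337) pass edgeR's test, with 24.2% of all genes.

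Tlr7 and Tlr13 lie on the X chromosome, and Tlr7 is known to be expressed from both X chromosomes in some immune cells. Each P14 group held 2 animals of each sex label. The log2 difference of male over female was -0.19 for Tlr7 (95% confidence interval -0.51 to 0.12) and 0.03 for Tlr13 (-0.26 to 0.32). No member passed edgeR's or DESeq2's test or had an unadjusted p under 0.05 in edgeR, where edgeR called 0.0507% and DESeq2 0.0646% of all genes.

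Another 63 genes of the pathway were read from lists of relatives, folding and trafficking factors, adaptors, kinases and ubiquitin ligases, transcription factors, negative regulators and induced targets. On P7 edgeR called 0 of the 61 that were tested, with 11 at an unadjusted p under 0.05, where 27.3% of all genes were, and their median log2 fold change was 0.54. DESeq2 called 4 of the 61, a smaller share than the 13.4% of all genes it called. They are named here after their values were seen: Ticam1, the adaptor of Tlr3 and Tlr4, Hsp90b1, a chaperone of the receptors, and Ptgs2, which makes prostaglandins, were higher, and Lbp, which carries LPS in plasma, was lower. Ticam1 was at 49.99, 57.0, 47.1 and 49.3 CPM in HIE pups, 40.1 and 35.8 in P6H55, and 18.3 and 16.1 in P6H63. Lbp was at 31.4 to 35.0 CPM in HIE pups, 39.5 and 47.0 in P6H55, and 75.5 and 143 in P6H63. It was highest where microglia markers were lowest.

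Of the most abundant genes of each list, the MD-1 gene Ly86 and its partner Cd180, the trafficking protein Unc93b1 that brings endosomal receptors to their compartment, and the transcription factor Irf8 had P7 log2 fold changes of 1.28, 1.21, 1.16 and 1.17. Against P6H55 alone these were 0.45, 0.46, 0.36 and 0.37, near those of Tlr9 and Ly96 rather than of Tlr2. The adaptors Ticam2 and Myd88 had 1.03 and 0.98 against all controls and 0.28 and 0.40 against P6H55. The induced targets Il1b and Nfkbiz had 1.27 and 1.23, and 0.50 and 0.48 against P6H55. Hsp90b1, Nfkb1, Tab2, Peli1, Zfp36 and Dusp1 had 0.42, 0.66, 0.54, 0.42, 0.92 and 0.56 against all controls, and 0.23, 0.29, 0.11, 0.12, 0.18 and 0.04 against P6H55. None of these 14 genes passed edgeR's test in either comparison. On P14, edgeR called 0 of 60 tested pathway genes in HIE against control, HIE against hypoxia and hypoxia against control, with 6, 7 and 9 at an unadjusted p under 0.05, where 9.30%, 5.78% and 9.89% of all genes were. DESeq2 also called 0, with 7, 7 and 11 at an unadjusted p under 0.05, where 10.7%, 6.82% and 11.6% of all genes were.

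The genes most like each member in log2 CPM over the 12 P14 animals are given as a description, with Pearson's r over animals that share their litters, depth and processing, chosen from 21678 genes. Tlr2 was most like the aryl hydrocarbon receptor Ahr (r = 0.935), Nceh1 and the protease Ctsc. Tlr3 was most like Endod1 (0.961), 6030468B19Rik and Ets1, Tlr7 like Mtdh (0.947), Tigd2 and Irf2bp2, and Tlr9 like Mov10 (0.941), Zscan25 and Numa1. Tlr13 was most like Gmpr2 (0.939), Noc2l and Tm6sf1, Tlr4 like Gm57137 (0.921), Fgfr1op2 and Hltf, and Tlr6 like Gm5526 (0.951), Txnip and Fastkd2. Tlr1 was most like the small nucleolar RNA hosts Snhg6 (0.926) and Snhg1 and Gm57091, Cd14 like Alkbh2 (0.916), Gm20457 and the macrophage lectin Mgl2, and Ly96 like Katna1 (0.930), Ighd and Gm28707. No member was among the 3 genes most like another. Within the 10, the closest pairs were Tlr4 with Tlr7 (r = 0.805) and Tlr4 with Tlr13 (0.782).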

How the data were processed

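Groups and sex came from the sample labels, and animals were called a litter where their names share the part before the hyphen, which the labels do not define. The controls of the first time point are labelled P8 to P11, and the study's P7 was used. The deposited tables hold expected counts, which the authors obtained with RSEM after mapping to GRCm39 with STAR, and no scaling was applied. RSEM divides reads that match several genes. Libraries came from a stranded total RNA kit with removal of ribosomal RNA. Expected counts were rounded to whole numbers, and the 2 libraries each of 2 HIE animals were summed, giving 20 animals from 22 libraries. Of 56691 genes, 56017 matched GENCODE M39 by identifier and 674 did not.

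Genes were tested in R 4.3.3 with edgeR 4.0.16 (quasi-likelihood fit, TMM scaling, genes kept by filterByExpr). Adjusted p-values are Benjamini-Hochberg values over every tested gene, called under 0.05. Models were fitted to each day apart, except that the difference of effects was fitted to all 20 animals. DESeq2 1.42.0 was run on the same genes. CPM used TMM factors within a day, and log2 CPM a prior count of 2. Both tests were first run on simulated counts with known changes. P-values measure the spread between animals, and animals of 1 litter are not independent.

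The 10 members, the lists and the alternatives were chosen with earlier results of these data known. Named pathway genes are those called in a comparison, up to 3 a direction by adjusted p-value, or else the 2 with the highest mean CPM of a list. Ratios, the sum of Tlr1 and Tlr6, and the combination of DESeq2 with P6H55 were added after seeing the data. Microglia markers were 16 matched of 17 listed, from the study's supplement.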

Additional observations from a re-analysis of the deposited data

How the results depend on the processing

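No member passed edgeR's test in any of the 7 comparisons, and this held with RLE size factors, library size only, no filter on low counts, the covariates tried, 1 library per animal and fits of only the groups compared. Calls appeared as follows. On P7, DESeq2 called 2 members, DESeq2 with P6H55 alone called 4, and edgeR with P6H63 alone called 10. DESeq2 called 1 in P14 HIE against control and 1 in the difference of effects. Leaving out each animal in turn gave 0 to 2 calls on P7 (Tlr2 and Tlr3 without P6H55-7, where 24.2% of all genes were called), 0 to 4 for the difference of effects (4 without P6H55-7, 1 without P6H55-12) and 0 to 0 in the other comparisons. The number of all genes called on P7 then ran from 10 to 5588. With library size only, the median of all genes on P7 moved from -0.08 to -0.28, and the members' fold changes, 0.30 to 1.43, stayed above it.

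Signs turned as follows. With the microglia marker score as covariate, 4 P7 values that were 0.75 to 1.05 became -0.038 (Tlr4), -0.185 (Tlr6), -0.0887 (Tlr7) and -0.0838 (Tlr13), and P14 HIE against control gave -0.0397 (Tlr4) and -0.052 (Tlr13). With P6H animals alone, HIE against control gave -0.17 (Tlr2) and -0.11 (Tlr4), HIE against hypoxia 0.0064 (Tlr3) and -0.0173 (Cd14), and hypoxia against control 0.0383 (Tlr1). The sum of Tlr1 and Tlr6 gave 0.0709 for hypoxia against control. Leaving out 1 animal at a time, HIE against control ran from -0.0212 to 0.21 (Tlr2), -0.0053 to 0.17 (Tlr4), -0.041 to 0.25 (Tlr3), -0.0264 to 0.14 (Tlr7) and -0.10 to 0.008 (Ly96). HIE against hypoxia ran from -0.17 to 0.0762 (Tlr6), -0.15 to 0.0374 (Tlr3), -0.14 to 0.16 (Tlr13) and -0.0029 to 0.27 (Cd14). Hypoxia against control ran from -0.27 to 0.0157 (Tlr1), -0.22 to 0.0351 (Tlr2), -0.20 to 0.0317 (Tlr9) and -0.0416 to 0.26 (Tlr13), and male against female from -0.10 to 0.10 (Tlr13). The cause of these moves was not tested.

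No paired analysis was possible because each litter held 1 treatment and the labels give no numbers that pair animals across groups. With 4 animals a group from 2 litters, animal and litter spread cannot be told apart, and depth did not limit the members, all of which lay well above 3 counts.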
